A study of Mus musculus with 2 samples.

Results

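The genes that encode the constitutive proteasome, the large protease that removes proteins tagged with ubiquitin, were examined for open promoters in neonatal mouse spleen. Members were chosen by symbol: protein-coding genes of the GENCODE vM21 annotation on mm10 (GRCm38) whose name starts with Psma, Psmb, Psmc, Psmd, Psme, Psmf or Psmg followed by a digit, without the immunoproteasome genes Psmb8, Psmb9 and Psmb10. The rule gave 47 of 21853 protein-coding genes and used no measured value, although the members were chosen with earlier results of these data known. They comprised 8 genes of the 20S alpha ring, 8 of the 20S beta ring, 6 ATPases and 11 non-ATPase subunits of the 19S particle, 7 assembly chaperones, 5 activators or inhibitors, and 2 other genes. One of those 2 is Psmc3ip, which encodes a cofactor of meiotic recombination and no proteasome subunit, and the other is Psme2b, a gene with a single start site named after Psme2.

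Open chromatin had been mapped by DNase-seq, which reads out where the enzyme DNase I cuts the genome, in spleen tissue of male B6CASTF1/J mice aged 4 days, hybrids of C57BL/6J and CAST/EiJ parents. The 2 libraries were labelled biological replicates 1 and 2 of 1 group, so no contrast between conditions existed and every value below is a description without a test. Each had a longer and a stricter peak list and a list of footprints, short stretches inside open chromatin that are protected from the enzyme. Signal is the value the authors gave each peak, on a scale that is not stated. The longer lists held 80323 and 88723 peaks in replicates 1 and 2, and the footprint lists 217159 and 252901 entries. The number of reads is unknown, so no counting error could be given. Errors given as SD (n = 2) are taken over both libraries and include any difference in their scale. In a bulk tissue, fewer cells with an open site and less opening per cell cannot be told apart. Of 7 genes typical of spleen and blood cells, chosen with results in view, 5 had a promoter peak in both libraries (Spi1, Gata1, Klf1, Cd79a and Cd79b), while Ptprc and Csf1r had weak peaks in replicate 2 alone. None of 6 genes typical of liver, heart, skeletal muscle, neurons, islets and gut had a promoter peak in both, and Myod1 had one in replicate 2 alone.

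As background, the 20S core is a barrel of stacked rings in which the alpha rings gate the channel and the beta rings carry the proteolytic sites inside. The 19S particle caps the barrel, where its non-ATPase subunits bind and strip ubiquitin chains and its ATPase ring unfolds the substrate and threads it into the core. Dedicated chaperones assemble both parts, and other caps such as PA28 can replace the 19S particle. Subunit genes are expressed in nearly every cell and can be induced together when proteasome activity falls, through the factor NFE2L1, which binds DNA with small MAF proteins. Spleen holds many immune cells, in which an immunoproteasome with exchanged beta subunits is also made.

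Promoters that carry the patterns described below are given first, 5′ to 3′ on the strand of the gene. Each runs from 170 bases before the first base of the transcript through 30 bases that begin with it. The reference bases were taken from RefSeq GRCm38.p6. Capitals mark bases that lay inside a footprint of both libraries. The first set holds a match to the letters bound by CNC factors such as NFE2L1 with small MAF proteins (TGACNNNGC) that touched such a footprint. Psmb5 (chr14:54617993-54618192, minus strand) encodes the chymotrypsin-like subunit, Psmb6 (chr11:70525216-70525415, plus strand) the caspase-like subunit and Psmd9 (chr5:123228020-123228219, plus strand) a chaperone of the ATPase ring.
Psmb5: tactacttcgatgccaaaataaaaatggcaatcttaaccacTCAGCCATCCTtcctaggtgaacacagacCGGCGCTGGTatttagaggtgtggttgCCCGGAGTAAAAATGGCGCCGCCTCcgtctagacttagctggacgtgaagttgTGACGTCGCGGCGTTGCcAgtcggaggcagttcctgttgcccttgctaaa
Psmb6: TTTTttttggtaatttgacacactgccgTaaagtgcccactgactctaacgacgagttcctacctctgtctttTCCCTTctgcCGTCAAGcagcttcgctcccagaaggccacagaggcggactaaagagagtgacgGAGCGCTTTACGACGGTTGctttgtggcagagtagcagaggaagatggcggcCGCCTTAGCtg
Psmd9: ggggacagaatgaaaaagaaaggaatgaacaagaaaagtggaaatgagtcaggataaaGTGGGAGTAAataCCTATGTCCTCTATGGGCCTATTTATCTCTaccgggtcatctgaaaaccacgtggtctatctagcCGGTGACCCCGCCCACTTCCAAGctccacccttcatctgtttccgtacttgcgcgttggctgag
In Psmb5 the match TGACGTCGC lay 20 to 12 bases before the start site, with all 9 bases in a common footprint. In Psmd9 the match TGACCCCGC lay 31 to 23 bases before it, also with all 9 bases in a footprint. A GC box, CCGCCC, at 26 to 21 bases before the start site of Psmd9 overlaps that match and lay wholly in a footprint as well. Which letters the footprint belongs to cannot be told apart. In Psmb6 the match TGACGGAGC lay 38 to 30 bases before the start site, and 4 of its 9 bases were in a footprint.

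The second set holds matches to nuclear respiratory factor 1 (GCGCANGCG), a regulator of many genes needed in all cells, inside a footprint of both libraries. Psma2 (chr13:14613070-14613269, plus strand) encodes a subunit of the alpha ring, and Psmc4 (chr7:28050072-28050271, minus strand) and Psmc5 (chr11:106255984-106256183, plus strand) encode ATPases.
Psma2: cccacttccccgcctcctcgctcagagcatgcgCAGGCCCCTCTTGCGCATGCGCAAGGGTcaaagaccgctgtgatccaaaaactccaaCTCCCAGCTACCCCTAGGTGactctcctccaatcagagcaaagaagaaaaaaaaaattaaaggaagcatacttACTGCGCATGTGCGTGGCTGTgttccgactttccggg
Psmc4: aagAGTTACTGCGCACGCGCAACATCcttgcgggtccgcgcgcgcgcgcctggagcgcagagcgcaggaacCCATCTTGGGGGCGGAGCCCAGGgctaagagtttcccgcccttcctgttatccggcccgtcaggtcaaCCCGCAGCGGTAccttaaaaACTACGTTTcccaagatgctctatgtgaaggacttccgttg
Psmc5: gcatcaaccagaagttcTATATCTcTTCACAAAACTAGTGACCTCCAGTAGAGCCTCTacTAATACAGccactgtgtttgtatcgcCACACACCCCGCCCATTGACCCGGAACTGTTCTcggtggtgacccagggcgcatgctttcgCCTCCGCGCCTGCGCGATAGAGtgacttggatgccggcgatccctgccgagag
The footprinted match in Psma2 was GCGCATGCG at 125 to 117 bases before the start site, the one in Psmc4 GCGCACGCG at 160 to 152 bases before it, and the one in Psmc5, on the opposite strand, CGCCTGCGC at 17 to 9 bases before it. All 9 bases of each were protected in both libraries.

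The last pair shows the promoter with the highest mean signal of all members and the weakest of the beta ring. Psmd12 (chr11:107479314-107479513, plus strand) encodes a non-ATPase subunit of the 19S particle, and Psmb4 (chr3:94886932-94887131, minus strand) a structural beta subunit.
Psmd12: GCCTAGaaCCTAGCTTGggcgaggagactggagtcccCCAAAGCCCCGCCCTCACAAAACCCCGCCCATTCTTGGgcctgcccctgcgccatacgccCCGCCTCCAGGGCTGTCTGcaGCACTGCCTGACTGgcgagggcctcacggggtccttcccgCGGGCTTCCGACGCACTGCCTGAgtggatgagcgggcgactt
Psmb4: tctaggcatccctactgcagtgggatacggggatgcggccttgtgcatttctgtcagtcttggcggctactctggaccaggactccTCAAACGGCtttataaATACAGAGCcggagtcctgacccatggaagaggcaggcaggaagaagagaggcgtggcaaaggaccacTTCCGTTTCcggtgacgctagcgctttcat
In these 200 bases, 109 bases of Psmd12 and 27 of Psmb4 lay in footprints of both libraries. Both GC boxes written CCGCCC in the Psmd12 window, at 125 to 120 and 109 to 104 bases before the start site, were protected. Psmb4 held a TATA box, TATAAA, at 73 to 68 bases before the start site, of which 1 base was in a footprint.

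Nearly all proteasome promoters were open. Promoters were called open if each library had a peak of the longer list within 1 kb of a start site of a protein-coding transcript. This held for 44 of 47 members, against 60.8% of all protein-coding genes and 89.8% of CpG-rich ones. CpG-rich means an observed over expected CpG ratio of at least 0.5 in the 1 kb centred on the most upstream start site, which 40 of the 47 members met. The stricter peak list gave the same number, 44 members with a peak in both libraries, against 55.3% of all genes and 84.5% of CpG-rich ones. A footprint found in both libraries also lay near the start sites of 44 members, against 57.0% of all genes and 86.1% of CpG-rich ones. The share of open members, 93.6%, was thus well above that of all genes and a little above that of CpG-rich genes. Not all members are CpG-rich, so these sets are not alike. Of the CpG-poor members, Psma6, Psmd10, Psme1, Psme2 and Psmf1 were open and Psmb11 and Psme2b were not, against 26.4% open among all CpG-poor genes. Every alpha, beta, ATPase and non-ATPase gene outside the 2 tissue-restricted ones was open.

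The 3 members without an open promoter were 2 tissue-restricted subunits and Psme2b. Psma8, which encodes the alpha subunit of the testis proteasome, had no promoter peak in replicate 1 and a weak one of 0.319 in replicate 2 that was missing from the stricter list. The nearest peak of replicate 1 lay 22.9 kb away. Psmb11, which encodes the beta subunit of the thymus proteasome (chr14:54621433-54629556), lacked a promoter peak in both libraries. The nearest one, 3293 bp away in both libraries, was the promoter peak of its neighbour Psmb5. Psme2b (chr11:48945354-48946190) had none either, and the nearest peaks lay 43.8 kb away in replicate 1 and 44.4 kb away in replicate 2. Around its start site, 63.0% of the 31-base words occur more than once in the genome, compared with a median of 3.87% and a highest value of 17.1% for the 44 open members. Whether reads from there could be placed was not tested.

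The strength of the open promoters was above the middle of all open promoters and spread over a narrow range. For each gene, the strongest peak within 1 kb of a start site was taken in each library. The median over the 44 open members was 11.3 in replicate 1 and 8.65 in replicate 2, and over all 13282 open promoters it was 6.35 and 5.22. Ranked by the mean of both libraries, 37 of 44 lay above the median of all open promoters, 3 (Psmd12, Psmc5 and Psmb2) in the top 10% and 0 in the bottom 25%, with a median percentile of 69.7. Ranked among open CpG-rich promoters alone, the CpG-rich members had a median percentile of 69.0. Psmd5, the gene at that median, stood at 73.7 among all open promoters. The CpG-poor members Psma6, Psmd10, Psme1, Psme2 and Psmf1 have no rank there, so 69.0 and 69.7 cover different sets of genes. The upper quartile of the mean signal was 1.91 times the lower quartile for the members. This ratio was 6.13 for all open promoters and 4.12 for the open CpG-rich ones. The 78 open promoters of cytosolic ribosomal protein genes, another set of genes that build 1 machine, were similar to the members. Their median signal was 10.9 against 9.91, and their ratio of quartiles was 2.04.

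**Figure D1:**
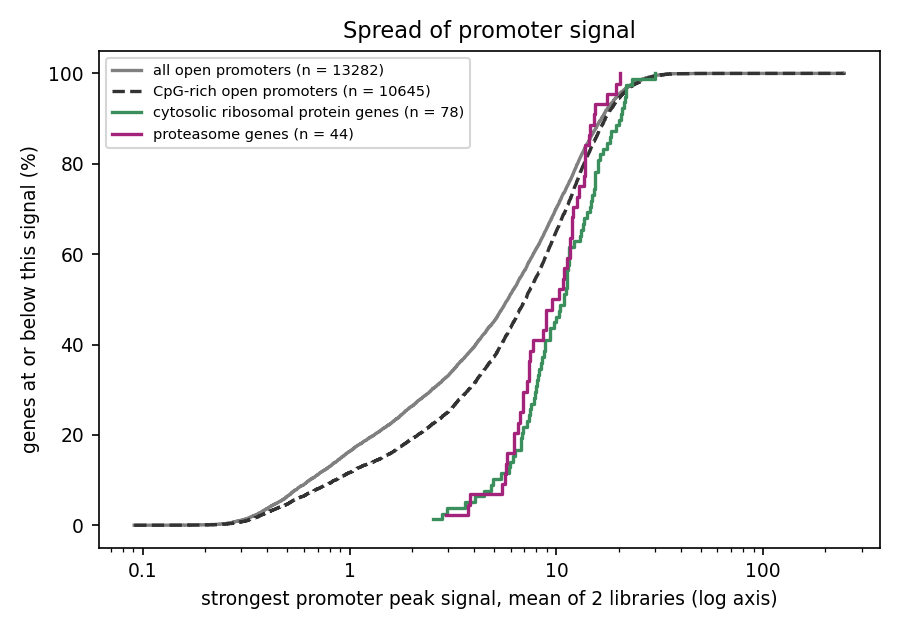
Cumulative share of genes (%) by strongest promoter peak signal, mean of the 2 libraries on a log axis, for 44 open proteasome genes, 78 ribosomal protein genes, 10645 CpG-rich and 13282 open promoters in all. The proteasome curve runs from 2.93 to 20.2, lies to the right of all open promoters at low signal and crosses them near the top.

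In the alpha ring, which gates the entrance of the core, the 7 genes other than Psma8 were open, with a median signal of 9.53. Psma2 (chr13:14613240-14674236) was the strongest, at 12.7 in replicate 1 and 13.1 in replicate 2 (mean 12.9 ± 0.305, SD, n = 2). Psma1 (chr7:114264606-114276118) followed at 12.8 and 10.9 (mean 11.9 ± 1.33). These 2 did not differ beyond the spread between libraries. Psma3 (chr12:70974621-70996347) was the weakest open gene of the ring, at 6.30 and 5.12 (mean 5.71 ± 0.837), close to the middle of all open promoters. Psma6 was the only alpha gene with a CpG-poor region at its most upstream start site, with a ratio of 0.223, and its peak, at 8.38 and 6.42, lay 9.5 bp before a start site further downstream.

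In the beta ring, which holds the proteolytic sites, the 7 genes other than Psmb11 were open, with a median signal of 7.48, the lowest of the main groups of subunits. Psmb2 (chr4:126677630-126709714), a structural subunit, was the strongest, at 19.4 in replicate 1 and 15.7 in replicate 2 (mean 17.6 ± 2.63, SD, n = 2). Psmb3 (chr11:97703399-97713500), also structural, gave 12.9 and 14.6 (mean 13.7 ± 1.21). Both stood above every gene of a catalytic subunit. Psmb5 (chr14:54614119-54618022) for the chymotrypsin-like site gave 6.94 and 4.61, Psmb6 (chr11:70525367-70527858) for the caspase-like site 7.53 and 5.82, and Psmb7 (chr2:38588036-38644087) for the trypsin-like site 8.59 and 6.36. The 3 catalytic genes lay near the middle of all open promoters, between the percentiles 49.7 and 58.8. Within each library their order was the same, with Psmb5 lowest and Psmb7 highest. Psmb4 (chr3:94884093-94886961) was the weakest, at 4.15 and 3.33 (mean 3.74 ± 0.579), and both its values lay below those of the 6 other open beta genes within the same library. The 3 immunoproteasome genes, whose products replace the catalytic subunits, were all open but spread more widely than their constitutive counterparts. Psmb9 gave 17.0 and 15.7, Psmb8 gave 3.84 and 2.996, and Psmb10 gave 0.898 and 0.961 with no stricter peak in replicate 1. Psmb9 shares its promoter with Tap1 on the opposite strand.

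The 6 ATPase genes of the 19S base were all open, with a median of 10.6 and the widest spread of any group of subunits. Psmc5 (chr11:106256154-106263120, Rpt6) was the strongest, at 22.3 in replicate 1 and 16.5 in replicate 2 (mean 19.4 ± 4.08, SD, n = 2). Psmc3 (chr2:91054009-91066369, Rpt5) gave 17.3 and 13.1 (mean 15.2 ± 2.99). Psmc4 (Rpt3) gave 14.99 and 13.8. The products of these 6 genes form 1 ring in equal numbers, while the signals at their promoters differed several-fold. Psmc1 (chr12:100110154-100123405, Rpt2) was the weakest, at 3.99 and 3.62 (mean 3.81 ± 0.264), and its 2 values lay below those of the 5 other ATPase genes in both libraries.

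The 11 non-ATPase genes of the 19S particle were all open and had the highest median signal of the groups, 11.7. Psmd12 (chr11:107479484-107504362, Rpn5) had the highest mean of all members, at 22.2 in replicate 1 and 18.3 in replicate 2 (mean 20.2 ± 2.77, SD, n = 2). Psmc5 was marginally higher than Psmd12 in replicate 1, and the means of these 2 genes did not differ beyond their spread. Psmd3 (chr11:98682554-98695979, Rpn3) followed at 14.3 and 13.3 (mean 13.8 ± 0.651), and Psmd2 and Psmd4, a ubiquitin receptor, were within 1 SD of it, with means of 13.8 and 13.7. Psmd14 (chr2:61711694-61800376), the deubiquitinase that removes ubiquitin chains from the substrate, was the weakest, at 6.55 and 4.42 (mean 5.49 ± 1.51). By its mean it was the only gene of the 11 below the median of all open promoters. Psmd13 differed in another way, because its strongest peaks in the 2 libraries, 11.7 and 8.91, did not overlap, the only such case among the 44.

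All 7 chaperone genes were open, with a median of 10.9. Psmd9 (chr5:123169413-123250131), a chaperone of the ATPase ring, gave 16.9 in replicate 1 and 13.8 in replicate 2 (mean 15.4 ± 2.14, SD, n = 2). Psmg1 (chr16:95979933-95990960), which helps to build the alpha ring, gave 14.5 and 14.7 (mean 14.6 ± 0.190). Its partner in that step, Psmg2, had the lowest mean of the 7, at 6.85 and 4.39 (mean 5.62 ± 1.74), so the genes of this heterodimer differed 2.60-fold in mean signal. Psmg3 and Psmg4, which form the other such pair, gave means of 6.23 ± 0.800 and 11.7 ± 1.61. In replicate 1 Psmg3, at 5.66, was lower than Psmg2, and the means of these 2 genes did not differ beyond their spread. Within each of the 2 heterodimers the genes differed beyond the spread between libraries.

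The 5 genes of activators and the inhibitor were open, with a median of 8.89. Psme4 (chr11:30771726-30880361), the PA200 cap, was the strongest, at 12.98 in replicate 1 and 10.97 in replicate 2 (mean 11.97 ± 1.42, SD, n = 2). Psme2 (chr14:55587441-55591113), a subunit of the interferon-induced PA28 cap, gave 9.87 and 8.01, but that peak lay 577.5 bp before its start site, at the start of the divergent gene Rnf31. Within 300 bp of its own start sites, a window chosen after its values were seen, Psme2 gave 4.89 and 4.06 (mean 4.48 ± 0.587), at percentile 41.9 in place of 65.5. Its partner Psme1 (chr14:55578123-55581529) was the weakest open member, at 3.09 and 2.77 (mean 2.93 ± 0.225). Both genes of the interferon-induced cap were thus below the middle of all open promoters by their own peaks, while Psme3 of the nuclear PA28 cap gave 10.1 and 7.68. Psmf1, the inhibitor PI31, gave 6.42 and 6.04. Psmc3ip, counted apart, gave 11.2 and 10.3.

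**Figure D2:**
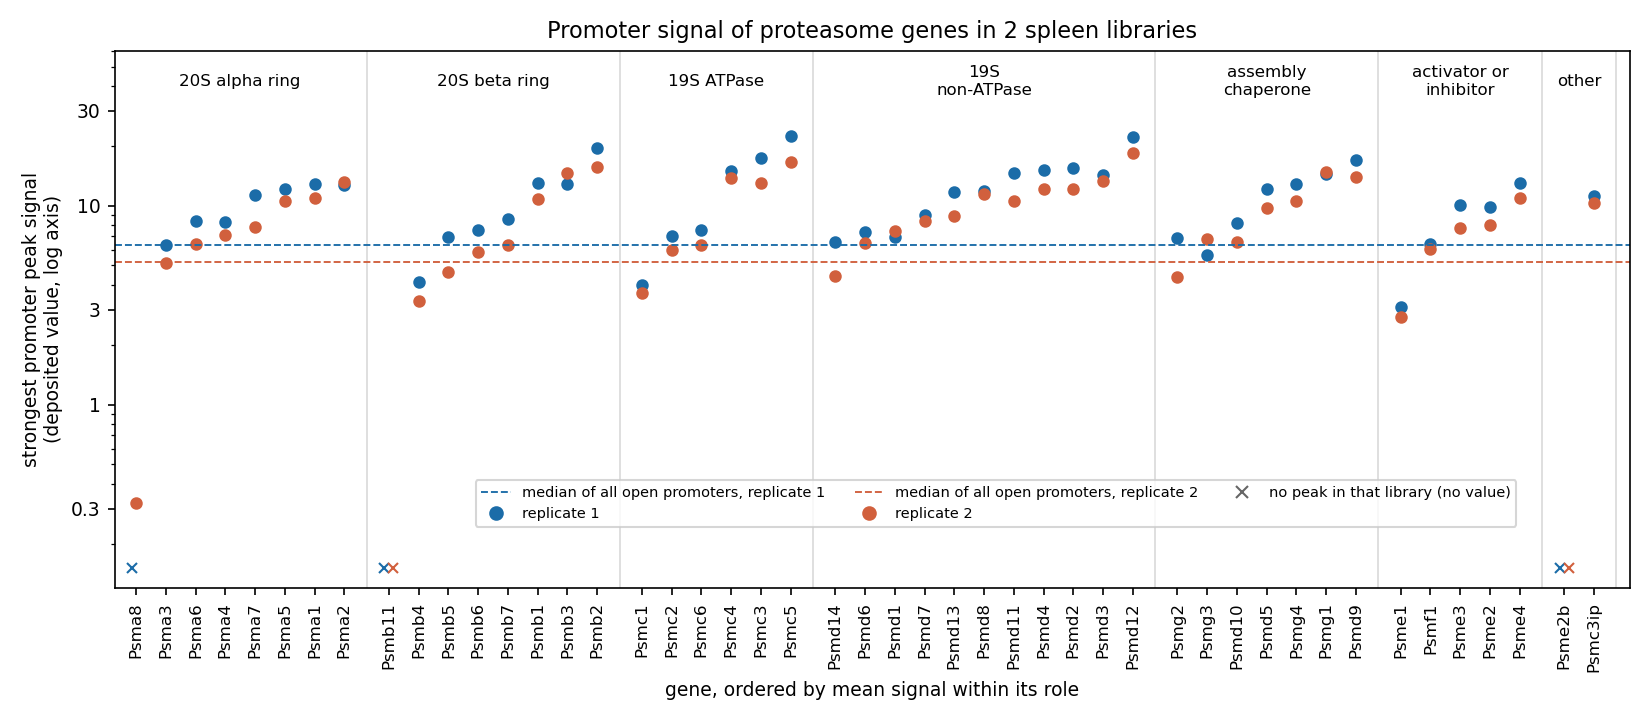
Strongest promoter peak signal (log axis) of each of the 47 genes in replicate 1 (blue) and replicate 2 (orange), grouped by role and ordered by mean within it, with dashed lines at the medians of all open promoters (6.35 and 5.22) and crosses for libraries with no peak. Psmd12, Psmc5 and Psmb2 stand highest, and Psme1, Psmb4 and Psmc1 are the lowest of the genes with a peak in both libraries.

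Other genes of the ubiquitin and proteasome pathway were open as well. Of a list of 26 genes, 25 were in the annotation under the symbol used, and all 25 had a promoter peak in both libraries, with a median signal of 12.1. The strongest were Rad23b, a shuttle that delivers ubiquitinated proteins, at 31.6 in replicate 1 and 28.9 in replicate 2, and Nfe2l2, the stress factor NRF2, at 29.6 and 24.7. Nfe2l1, whose product induces the subunit genes, gave 16.0 and 13.5. The remaining 19S subunits gave 15.4 and 12.6 at Adrm1 and 6.89 and 6.26 at Sem1, both within the range of the members. Pomp, which encodes the chaperone that completes the core, was low at 4.31 and 3.36, near Psmb4 and Psmc1. The ubiquitin-activating enzyme gene Uba1 gave 4.01 and 3.69. The lowest of the 25 was the shuttle gene Ubqln2, at 1.97 and 1.43, below every open member. These 3 low genes were named after their values were seen.

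The 2 libraries ranked the members nearly alike. Signal was higher in replicate 1 for 39 of the 44 and in replicate 2 for 5, and the same held for 10945 and 2337 of all open promoters. The median log2 ratio of replicate 2 over replicate 1 was −0.28 for the members and −0.24 for all open promoters, and after the second value was subtracted from each gene the members' median was −0.04. The largest centred log2 ratios were 0.51 at Psmg3, 0.42 at Psmb3 and 0.34 at Psmd1. The smallest were −0.40 at Psmg2, −0.34 at Psmb5 and −0.33 at Psmd14. The SD of the centred log2 ratio was 0.19 for the members and 0.26 for all open promoters. Across genes, Pearson's r of log2 signal between the libraries was 0.957 over the 44 members and 0.989 over 13282 genes, whose signals cover a far wider range. Genes are not independent replicates, and these values are descriptions.

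**Figure D3:**
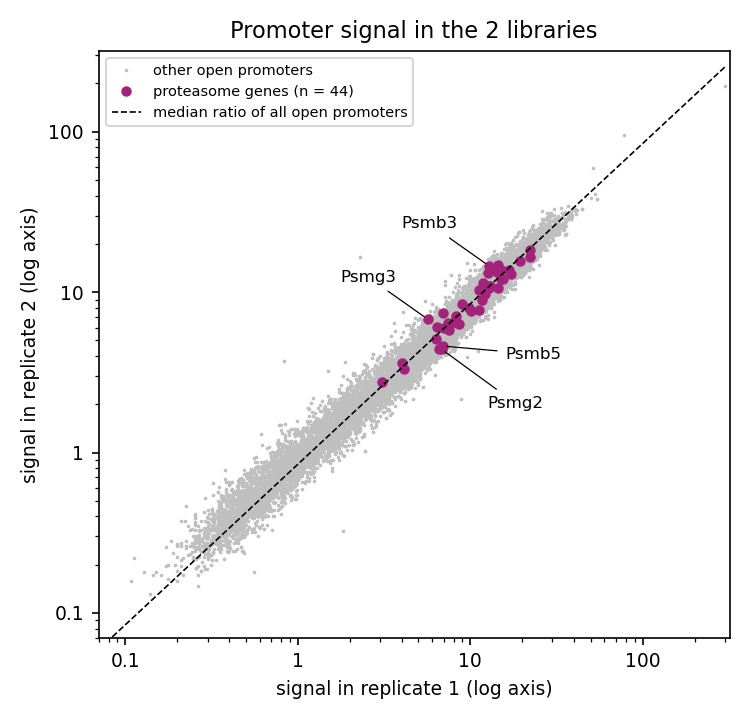
Promoter signal in replicate 1 against replicate 2, both on log axes, for the 44 proteasome genes (purple) and all other open promoters (grey), with a dashed line at the median ratio of all open promoters. The members lie along that line, with Psmg3 and Psmb3 above it and Psmg2 and Psmb5 below it.

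Peaks at the members were centred close to the start site. The midpoint of the strongest peak was averaged over both libraries where their peaks overlapped, and taken from 1 library at Psmd13. It lay a median of 19.5 bp upstream of the nearest start site. For 41 of 44 members (93.2%) it was within 150 bp of that site, against 76.9% of all open promoters. The share was 92.0% for the other pathway genes and 87.2% for ribosomal protein genes. The exceptions among the members were Psme2, Psmd1 with a peak 268.5 bp upstream, and Psma5, where it lay 169.5 bp downstream. Median peak width was 180 bp in replicate 1 and 200 bp in replicate 2, against 200 bp in both for all open promoters. Peaks inside the gene but more than 1 kb from its own start sites, shared by both libraries, occurred at 11 of 44 members (25.0%). They occurred at 49.5% of all open genes. Promoters of other genes inside the same span were not left out of these counts. The strongest such peak at Psma2, 6.91 in replicate 1 and 4.64 in replicate 2, has the values of the promoter of AW209491. The members are also shorter, with a median length of 12.5 kb against 24.7 kb, and the part of length in this difference was not tested. Psmd9 had the most such regions, 7, with a strongest signal of 9.53 in replicate 1 and 8.76 in replicate 2.

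Some members share their promoter with a gene on the opposite strand. A protein-coding neighbour that starts within 1 kb in the divergent direction was found for 10 of 47 members (21.3%), against 9.87% of all genes. The share was higher among genes of similar promoters, at 16.3% of CpG-rich genes, 15.4% of all open genes, 17.7% of ribosomal protein genes and 5 of 25 other pathway genes. The distance between start sites was 32 bp for Psmc2 and Dnajc2, 75 bp for Psma2 and the mitochondrial ribosomal gene Mrpl32, 75 bp for Psmc5 and Ftsj3, and 76 bp for Psma7 and Ss18l1. It was 99 bp for Psmd13 and the sirtuin gene Sirt3, 106 bp for Psma4 and AY074887, 137 bp for Psmb1 and Tbp, the TATA-binding protein gene, 179 bp for Psmd10 and the autophagy gene Atg4a, 263 bp for Psmg2 and Cep76, and 595 bp for Psme2 and Rnf31. In all 10 pairs both genes had the same strongest signal, which is nearly fixed in advance, since their windows of 1 kb around the start sites overlap. The contribution of either gene to that signal cannot be told apart. The 10 members with such a neighbour had a median signal of 9.23, and the 34 other open members had one of 10.8. Over all genes the order was the opposite, with 10.1 for 2050 open genes with a divergent neighbour and 4.96 for 11232 without one. These 2 groups differ in CpG content, with 1892 and 8753 CpG-rich genes. A comparison at like CpG content was not made.

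Signal did not follow CpG content or the number of footprints among the members as it did over all open promoters. Spearman's rho of mean signal with the CpG ratio was −0.06 over the 44 members and 0.39 over all open promoters. With the number of footprints it was 0.08 and 0.61. The members cover only part of the range of all 3 measures, which all come from the same start-site windows. The number of footprints near the start sites had a median of 8 in replicate 1 and 9 in replicate 2, compared with 8 in both for all open promoters. Psmb1 and Psmg2 had the most, with a mean of 14 each, and Psmg3 the fewest, with 5.0. Of 370 footprints of replicate 1 at the 44 members, 262 (70.8%) overlapped one of replicate 2, close to the 69.4% at all open promoters.

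Footprints at the members lay on both sides of the start site. In the 50 bp that ran from 100 to 50 bp upstream there were 114 footprints per 100 promoters in replicate 1 and 125 in replicate 2, compared with 85.7 and 83.0 at all open promoters. Downstream, from 50 to 100 bp, there were 105 and 118, compared with 62.0 and 69.3. The gap was smaller from 50 bp upstream to the start site, with 100 and 88.6 compared with 88.0 and 86.5. From 200 to 150 bp upstream the members were lower, with 40.9 and 43.2 compared with 46.3 and 50.1. All open promoters include many weaker ones, with a median signal of 5.82 against 9.91 for the members. A comparison with promoters of like signal was not made.

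**Figure D4:**
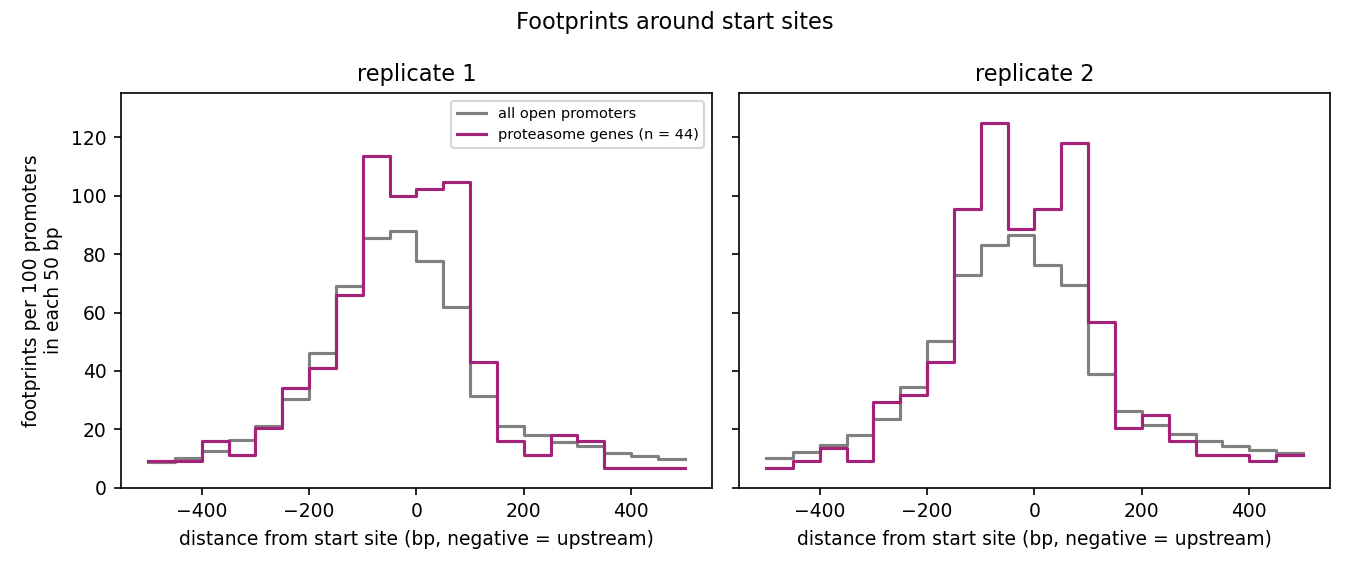
Footprints per 100 promoters in bins of 50 bp by distance from the start site nearest the strongest peak, for each library, with 44 proteasome genes in purple and all open promoters in grey. In the bin 50 to 100 bp downstream the proteasome genes reach 105 and 118, and all open promoters 62.0 and 69.3.

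Short motifs were searched on both strands around the start site nearest the strongest peak, in the 44 open members and in all 13282 open promoters. The window ran from 250 bp before that site through 50 bp that begin with it. A match only says that these letters occur in the window, and those partly or wholly inside a footprint of both libraries were counted again. The GC box (GGGCGG) was the most frequent, in 27 members (61.4%) and 67.2% of all open promoters, and in a footprint in 52.3% and 45.8%. The CCAAT box (CCAAT) occurred in 16 members (36.4%) and 38.01% of all. The median GC content of the window was 58.7% for the members and 61.7% for all. These general promoter letters were about as frequent at the members as elsewhere.

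Letters of ETS factors (CCGGAAG) stood out in share, with 16 members (36.4%) against 17.8% of all open promoters, and 18.2% against 8.18% inside a footprint. Where the letters occurred, they touched a footprint at similar rates, in 8 of 16 members and 1087 of 2366 open promoters. The 8 with a footprinted match were Psmc1, Psmc3ip, Psmc6, Psmd4, Psmd7, Psme3, Psme4 and Psmg1. None was a 20S gene, and among 20S genes Psma6 alone had these letters in the window. Letters of YY1 (AAGATGGCG) occurred in 4 members, Psmb6, Psmc5, Psmd11 and Psmd7 (9.09% against 3.10%), and those of GATA factors (AGATAA) in 6 (13.6% against 5.59%), of which Psmd9 had the match in a footprint. These counts are small and no test was made.

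The CNC and small MAF letters occurred in 7 members, Psmb2, Psmb5, Psmb6, Psmc6, Psmd12, Psmd7 and Psmd9, a share of 15.9% close to the 14.5% of all open promoters. In 4 of them (Psmb5, Psmb6, Psmd7 and Psmd9) the match touched a footprint of both libraries, which is 9.09% of members and 5.07% of all open promoters. In Psmd12 the match GCTGTGTCA lay 203 to 195 bases before the start site, outside any common footprint. Centring the window on the strongest peak, with 150 bp on either side, gave 11 members in place of 7 (25.0%), and 15.8% of all open promoters. The letters of nuclear respiratory factor 1 occurred in 7 members, Psma2, Psma3, Psma4, Psmc4, Psmc5, Psmd14 and Psmg1 (15.9% against 14.1%). In all 7 a match lay at least partly in a footprint of both libraries, as it did in 1539 of the 1867 open promoters that held these letters. As a share of all promoters in each set, that is 15.9% of members and 11.6% of all open promoters.

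The remaining letters were about as frequent at the members as at all open promoters. The E box (CACGTG) occurred in 5 members (11.4%) and 10.4% of all open promoters, although the peak-centred window held it in 3 members. The TATA box (TATAAA) occurred in Psmb4, Psmd1 and Psmd6 (6.82% against 6.05%). The CRE (TGACGTCA) occurred in Psmb2 alone, against 3.61% of all. The letters of E2F (TTTCCCGC or TTTGGCGC) occurred in Psmc4 alone, against 3.14% of all, and in 2 members with the peak-centred window. Those of AP-1 (TGAGTCA) occurred in Psmd9 alone, against 2.88% of all. Letters of ZNF143 (ACTACAATT) occurred in 0 members and 0.775% of all open promoters. The AP-1 letters can overlap those of CNC and small MAF, and the nuclear respiratory factor 1 letters can match both strands at 1 place, which was counted as 1 promoter. Partial overlaps between other motifs were not separated.

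**Figure D5:**
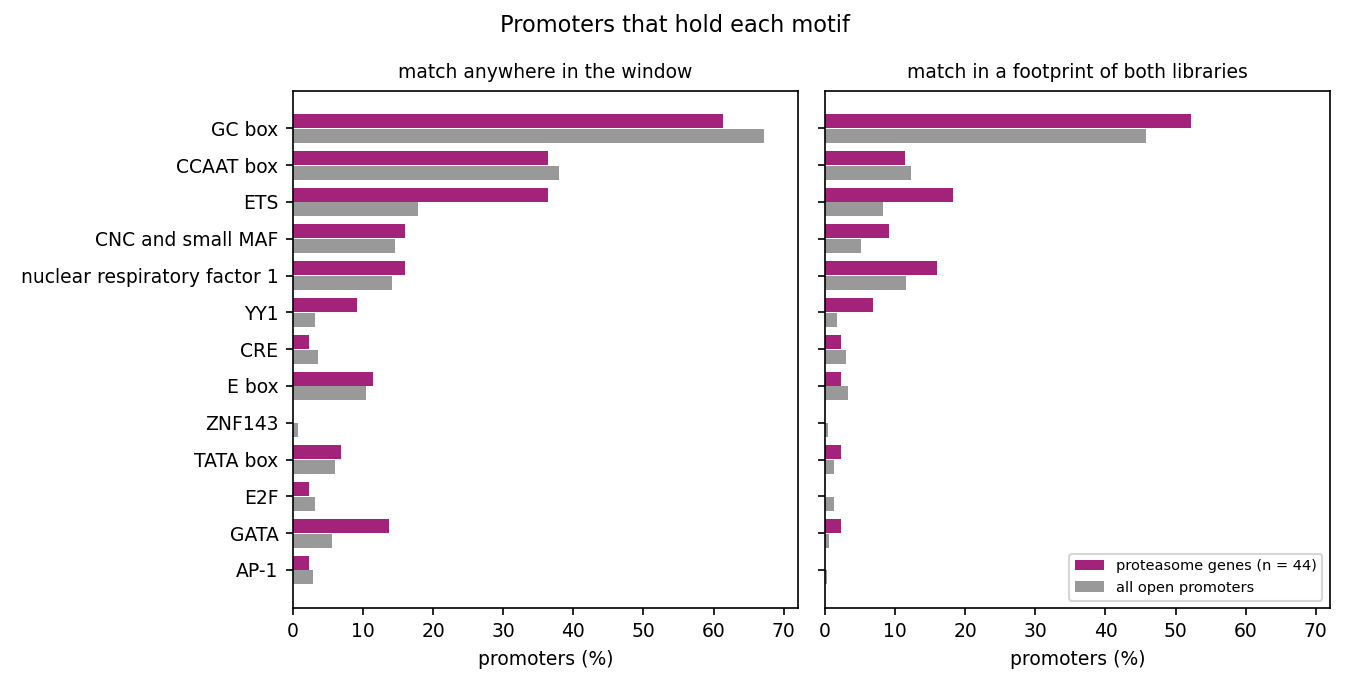
Share of promoters (%) that hold each of 13 motifs anywhere in the 300 bp window (left) and in a footprint of both libraries (right), for 44 proteasome genes in purple and all open promoters in grey. ETS letters show the widest gap in the window, 36.4% against 17.8%, and the GC box is the most frequent in both sets.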

How the data were processed

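Both DNase-seq libraries of the single group, 2 biological replicates per the labels, were used. Per the file headers and labels the assembly is mm10. The authors deposited a signal per peak, called on each library, with no stated scale. Footprints carry a deposited FDR (q-value) of 0.01 in every line. Positions carry a deposited FDR (q-value) and hold values under 0.05. For the aligner, the callers and the handling of CAST/EiJ reads against a C57BL/6J reference, the status is: not given in the sources used here. Depth is unknown.

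Genes were those with a start site of a protein-coding transcript in GENCODE vM21 (54361 start sites). A gene's signal was its strongest peak within 1 kb of any of them. Footprints matched with at least 1 bp of overlap. CpG ratios, motifs and the sequences shown were read from RefSeq GRCm38.p6. Of 47 members, 39 matched RefSeq's promoter table by symbol, and sequences were printed only for those. Genes were named by role: the 2 strongest and the weakest promoter of each, all members without an open promoter, with a divergent neighbour, with CNC and small MAF letters, with the largest ratios or with most footprints. Others were named after their values were seen. The members and lists were chosen with earlier results of these data known. Percentiles rank a gene among all open promoters. The steps were tested on simulated data. Alternatives were each library alone, other windows and start sites, the stricter list, summed peaks, stricter overlap and other motif windows. Python 3.11.15, numpy 2.4.6, pandas 2.3.3, pysam 0.24.0, matplotlib 3.10.9, bedtools 2.31.1 and samtools 1.23.1 were used.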

Additional observations from a re-analysis of the deposited data

How the results depend on the processing

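Of 110 recomputed values, 103 stayed close to the reported ones and 7 moved. Counts were called close if they changed by at most 1.5-fold, and the log2 ratio if it changed by at most 0.1. Other medians were called close within the SD of the values from each library alone. For medians with 1 library left out, that SD comes from the same values, so the call there was almost fixed in advance. Counts of 44 out of 47 members cannot rise 1.5-fold, and the reported log2 ratio, −0.04, is smaller in size than its limit of 0.1. The SD for the median signal also includes any difference in scale between the libraries. The number that stayed close is therefore a weak measure of stability. With windows of 2500 bp the median number of footprints per member was 9.5 in place of 8.5. The median percentile was 66.8 with the stricter peak list and 73.4 without the 10 members that have a divergent neighbour, in place of 69.7, and the latter was chosen after seeing the data. The sum of all peaks in the window gave a median signal of 12.8 in place of 9.91. With motif windows of 150 bp on either side of the strongest peak, 11 members held the CNC and small MAF letters, 3 an E box and 2 the E2F letters. With 1 library left out, open members ranged from 44 to 45, the median signal from 8.39 to 11.3 and the median percentile from 68.6 to 72.4. Using only the most upstream start site, Psma6 was no longer open. The log2 ratio between the libraries cannot be computed with 1 library left out. No paired analysis was possible because there was only 1 group. With depth unknown, a missing weak peak, as at Psma8, may lie under a library's limit of detection.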
